A study of Mus musculus with 2 samples.

Results

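A set of 10 genes that mark microglia activated by disease, and lysosomes, was followed in the retina, and its members were chosen by name: *Apoe*, *Trem2*, *Tyrobp*, *Cst7*, *Lpl*, *Cd68*, *Lgals3*, *Spp1*, *Gpnmb*, and *Ctsd*. All 10 are among the 32285 genes counted. Droplet-based scRNA-Seq had been run on 1 retinal library of WT mice and 1 of ND6 mice, both from 7-month-old males of strain C57BL/6J. The ND6 mice carry a proline-to-leucine change in the mtDNA gene for subunit ND6 of complex I, and per the study's methods the line came from fused female embryonic stem cells and was kept by crossing mutant females to WT males. The labels do not say how many animals gave each library. The matrices hold 77958836 (WT) and 80358255 (ND6) unique molecular identifiers (UMIs), of which 54524401 in 12529 cells and 62949610 in 18395 cells remained after filtering.

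Microglia are the resident macrophages of the retina, and near damaged or dying neurons they take up lipid and debris. In that state they are known to switch on a shared program, in which the lipid receptor TREM2 and its adaptor TYROBP signal to a set of lipid-handling and lysosomal genes. Müller glia and the retinal pigment epithelium (RPE) also handle lipid and debris, so several of these genes are not particular to microglia.

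Each member has a known role, and positions are those of GENCODE on build GRCm38 (mm10). *Trem2* (chr17:48346401-48354147, plus strand) encodes the lipid receptor itself, and *Tyrobp* (chr7:30413760-30417585, plus) the adaptor through which it signals. *Apoe* (chr7:19696109-19699188, minus) encodes apolipoprotein E, the lipid carrier that TREM2 can bind. *Lpl* (chr8:68880491-68907448, plus) encodes lipoprotein lipase. *Cst7* (chr2:150570415-150578944, plus) encodes cystatin F, an inhibitor of lysosomal cathepsins. *Ctsd* (chr7:142375911-142388038, minus) encodes cathepsin D, a lysosomal protease. *Cd68* (chr11:69664213-69666153, minus) encodes a membrane protein of the late endosome and lysosome. *Gpnmb* (chr6:49036546-49070929, plus) encodes a glycoprotein of lysosomes and melanosomes. *Lgals3* (chr14:47367751-47386160, plus) encodes galectin-3, which binds damaged lysosomes, and *Spp1* (chr5:104435118-104441050, plus) encodes the secreted protein osteopontin. *Ctsd* and *Spp1* each overlap another annotated gene on the same strand (*Gm49369* and *Gm42793*), and reads in the overlap could have been given to either.

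The 250 bases before the RefSeq start of *Apoe*, *Trem2*, *Cd68*, *Ctsd*, and *Gpnmb* are shown because the comparisons turn on these genes. They are RefSeq sequences of GRCm38.p6, given 5′ to 3′ on the gene's own strand. Capitals mark matches to CACGTG, the E-box that the lysosomal regulator TFEB is known to bind, and to GAGGAA, the core of the site of the myeloid factor PU.1, or its reverse complement TTCCTC. The stretches lie at chr7:19699189-19699438 (minus), chr17:48346151-48346400 (plus), chr11:69666171-69666420 (minus), chr7:142387828-142388077 (minus), and chr6:49036268-49036517 (plus). RefSeq and GENCODE starts can differ, and most of the *Ctsd* stretch lies within the GENCODE span of the gene.

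Apoe: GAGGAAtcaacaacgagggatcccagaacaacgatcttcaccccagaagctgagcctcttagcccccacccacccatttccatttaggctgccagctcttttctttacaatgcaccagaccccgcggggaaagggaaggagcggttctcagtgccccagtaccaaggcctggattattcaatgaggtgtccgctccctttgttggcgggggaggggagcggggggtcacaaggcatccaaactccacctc
Trem2: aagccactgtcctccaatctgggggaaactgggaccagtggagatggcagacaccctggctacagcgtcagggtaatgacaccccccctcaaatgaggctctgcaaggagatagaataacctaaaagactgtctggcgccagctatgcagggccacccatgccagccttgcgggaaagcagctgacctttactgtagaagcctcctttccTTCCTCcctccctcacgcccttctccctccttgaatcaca
Cd68: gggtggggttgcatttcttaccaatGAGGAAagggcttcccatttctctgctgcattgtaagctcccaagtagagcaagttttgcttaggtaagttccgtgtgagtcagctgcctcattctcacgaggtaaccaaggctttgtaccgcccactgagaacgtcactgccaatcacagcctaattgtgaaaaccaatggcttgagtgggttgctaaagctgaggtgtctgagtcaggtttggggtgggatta
Ctsd: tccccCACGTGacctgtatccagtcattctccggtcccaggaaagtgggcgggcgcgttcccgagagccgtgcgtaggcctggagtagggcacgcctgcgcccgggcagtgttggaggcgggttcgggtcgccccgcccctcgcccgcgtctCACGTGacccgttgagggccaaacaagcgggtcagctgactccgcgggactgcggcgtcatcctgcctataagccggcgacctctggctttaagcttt
Gpnmb: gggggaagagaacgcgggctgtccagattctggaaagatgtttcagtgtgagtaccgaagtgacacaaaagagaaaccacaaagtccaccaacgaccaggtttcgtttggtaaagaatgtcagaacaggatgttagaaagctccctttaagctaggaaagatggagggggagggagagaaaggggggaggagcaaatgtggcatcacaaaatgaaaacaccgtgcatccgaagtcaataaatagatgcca

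Of the 10 members, 8 have promoters in the RefSeq table used, and *Tyrobp* and *Lpl* have no entry. On either strand, CACGTG was present in 1 of the 8, *Ctsd*, which holds it at 245 and again at 98 bases before the start. The latter copy lies within TCACGTGA, the longer element of the lysosomal gene network. CACGTG was present in 6.02% of all 32851 promoters of this length, and TCACGTGA in 0.785%. GAGGAA was present in 4 of the 8 (*Apoe*, *Trem2*, *Cd68*, and *Spp1*), and in 23.25% of all promoters. The 8 genes have 11 promoters in the table, of which CACGTG was in 1 and GAGGAA in 5, so shares of genes and of promoters are not alike. TCATGTG, the M-box core bound by the melanocyte and RPE factor MITF, was present in 0 of the 11 promoters and in 3.25% of all. These matches describe letters in the windows and are not binding sites shown by any measurement here.

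The 3 cell classes were set by gates on other genes. Cells with at least 3 UMIs of *C1qa*, *C1qb*, and *C1qc* making up at least 0.2% of their UMIs were taken as microglia or macrophages, 164 in WT (1.31% of cells, 95% interval 1.12 to 1.52) and 96 in ND6 (0.522%, 0.423 to 0.637). The Müller gate left 24 and 30 cells and the RPE gate 216 and 729. Depth differed between the libraries, with a median of 1584.5 UMIs per C1q-gated cell in WT and 1114.5 in ND6, 6649.5 and 1438 per Müller cell, and 4098 and 1067 per RPE cell. Rods, which should lack microglial genes, numbered 10353 and 12862 and serve as a background, together with free RNA read from barcodes of 10 to 100 UMIs. Of 59 barcodes that passed in both libraries, 0 were C1q-gated or Müller cells, and 4 were RPE cells in ND6.

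Markers outside the gates mostly went with the class names. All 12 microglia markers had UMIs in the C1q-gated cells of both libraries, *Csf1r* at 1283 counts per 1000000 summed UMIs of the class (CPM) in WT and 1932 in ND6, *P2ry12* at 653 and 758, and *Tmem119* at 645 and 654. Markers of perivascular and other macrophages were sparse there, with 129 and 25 UMIs over the whole list of 8 genes, and *Ccr2* and *Lyve1* at 0 in both libraries. *Cd3e*, *Cd79a*, *S100a8*, and *S100a9*, markers of T cells, B cells, and neutrophils, also had 0 UMIs. Of the RPE list, *Ttr*, the transthyretin gene, stood at 67934 and 63349.9 CPM in RPE and at 51.8 and 51.6 CPM in Müller glia. *Glul*, the glutamine synthetase of Müller glia, stood at 10601 and 6111 CPM in that class and at 655 and 718 CPM in C1q-gated cells. Of the Müller list, *Glul*, *Vim*, *Car2*, and *Cp* were higher in Müller glia than in RPE in both libraries. *Clu* went the other way, at 3867 and 4641 CPM in Müller glia and 7693 and 7718 CPM in RPE. So did *Rlbp1*, which is on both lists, at 2785 and 1637 CPM in Müller glia and 3414 and 2388 CPM in RPE. Of the 164 and 96 C1q-gated cells, 149 and 90 held a microglia marker UMI and 9 and 6 a macrophage marker UMI, so the class is called C1q-gated cells.

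With 1 library per genotype there is no replicate, so no test was possible, and the spread between mice is unknown. All intervals are exact 95% intervals. Those of levels and ratios cover counting error of UMIs only. Those of shares of cells cover counting error of cells only, with each cell taken as independent. CPM are levels of one gene in summed UMIs of a class, and they were not compared between genes, because 3′ counts are not set per length. Ratios are log2 of the ND6 level over the WT level.

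**Figure D1:**
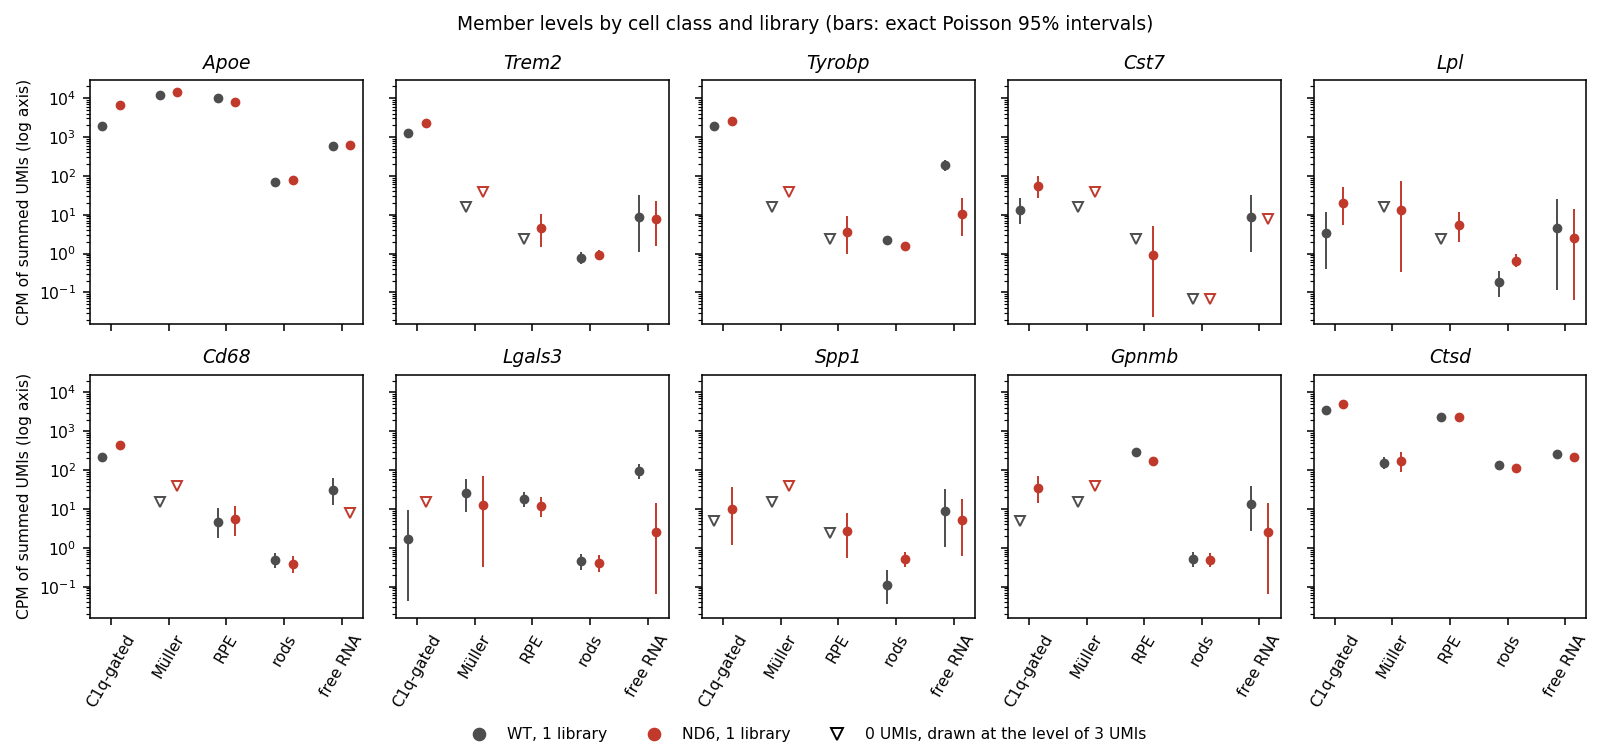
Levels of the 10 members in CPM (log axis) in C1q-gated cells, Müller glia, RPE, rods, and free RNA, WT in grey and ND6 in red, 1 library each, with exact Poisson 95% intervals. Open triangles stand at the level of 3 UMIs where 0 UMIs were counted. *Trem2* and *Tyrobp* stood above 1000 CPM in C1q-gated cells and at 0 in Müller glia of both libraries, and *Gpnmb* was highest in RPE. *Apoe* stood above its rod level in all 3 gated classes. In C1q-gated cells that level came from few cells, and the median cell held 0 *Apoe* UMIs.

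The receptor and its adaptor were nearly confined to the C1q-gated cells. Of all *Trem2* UMIs in cells, 93.1% in WT (757 of 813) and 86.9% in ND6 (458 of 527) came from this class, which held 1.31% and 0.522% of the cells. For *Tyrobp* the shares were 87.1% (1170 of 1343) and 79.7% (519 of 651). In RPE *Trem2* had 0 UMIs in WT and 5 in ND6, and in rods 34 and 41, or 0.768 and 0.929 CPM. The C1q-gated level of *Trem2* was 1630-fold the rod level in WT (1156 to 2371).

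*Trem2* stood at 1252 CPM (1164 to 1344) in WT and 2269 CPM (2066 to 2486) in ND6 C1q-gated cells. The intervals do not overlap, and the log2 ratio was 0.86 (0.69 to 1.03). *Tyrobp* was at 1935 CPM (1825 to 2049) and 2571 CPM (2354 to 2802), also higher in ND6, with a log2 ratio of 0.41 (0.26 to 0.56). The share of cells with a *Trem2* UMI was 70.1% (62.5 to 77.0) in WT and 72.9% (62.9 to 81.5) in ND6, beside 0.261% and 0.311% of rods, whose median depths were 1759 and 1368 UMIs. After each cell was thinned to 400 UMIs the shares were 42.1% (34.4 to 50.0) and 47.9% (37.6 to 58.4). These intervals overlap, but they count cells whereas those of the summed level count UMIs, so they are not directly comparable. A *Tyrobp* UMI was found in 87.8% (81.8 to 92.4) of WT and 85.4% (76.7 to 91.8) of ND6 cells. After thinning the *Tyrobp* shares were 59.8% and 59.4%, so its higher summed level was not a higher share of cells. *Tyrobp* also stood high in WT free RNA, at 186 CPM against 10.3 CPM in ND6. So did the neutrophil and myeloid genes *S100a8*, *S100a9*, and *Lyz2*, at 363, 495, and 425 CPM in WT, each with 0 UMIs in ND6 free RNA.

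The lysosomal members *Cd68* and *Ctsd* were higher in ND6 as well. *Cd68* stood at 212 CPM (177 to 252) in WT and 446 CPM (358 to 548) in ND6, a log2 ratio of 1.07 (0.67 to 1.47). *Ctsd* stood at 3534 CPM (3386 to 3687) and 4889 CPM (4589 to 5204), a log2 ratio of 0.47 (0.36 to 0.58). Neither pair of intervals overlaps. Free RNA was estimated at 43.0% of the class's UMIs in WT and 29.9% in ND6, and with it subtracted the log2 ratio was 0.61 for *Trem2*, 0.22 for *Tyrobp*, and 0.24 for *Ctsd*. *Cd68* drew 77.6% and 73.2% of its UMIs from C1q-gated cells, whereas *Ctsd* drew 17.5% and 9.38% from them and 48.0% and 47.2% from the far more numerous rods, at 132 and 113 CPM. A *Cd68* UMI was found in 32.9% (25.8 to 40.7) of WT and 41.7% (31.7 to 52.2) of ND6 C1q-gated cells. After thinning the *Cd68* shares were close, at 9.76% and 10.4%. The 5 cells with the most *Cd68* held 28.1% of its UMIs in WT and 42.2% in ND6. A *Ctsd* UMI was found in 84.1% (77.6 to 89.4) of WT and 91.7% (84.2 to 96.3) of ND6 C1q-gated cells, and in 61.0% (53.1 to 68.5) and 75% (65.1 to 83.3) after thinning. In rods those shares were 31.6% and 23.2%, and 5.84% and 4.59% after thinning.

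Of the 5 members with at least 20 UMIs in these cells, all 5 were higher in ND6, and 2 of them, *Apoe* and *Cd68*, by at least 2-fold. Of 5607 genes with as many UMIs, 6.33% were at least 2-fold higher and 8.72% at least 2-fold lower in ND6. The median log2 ratio was 0.86 over the 5 members and 0.02 over all these genes. The gate genes were also higher in ND6, with log2 ratios of 0.86 for *C1qa*, 0.61 for *C1qb*, and 0.81 for *C1qc*. A rise of this size was thus not particular to the members, and the part of the gate was not tested. The other 5 members were too sparse for the median and are given by their UMIs. The class also differed in other respects. The 9 dissociation-stress genes summed to 19543 CPM in WT and 11532 CPM in ND6, the 8 macrophage markers to 213 and 124 CPM, and the median mtDNA share of a cell was 10.4% and 4.77%. Without cells with at least 2 macrophage marker UMIs the median was 0.85, and without the mtDNA limit it was 0.86. In both, the median is the ratio of *Trem2*, of which the macrophage-marked cells held 7 UMIs in WT and 1 in ND6. Leaving those cells out could therefore hardly move it, and says little on the other members. Barcodes above the mtDNA limit added 98723 UMIs to 604721 in WT and 15911 to 201882 in ND6. The part of the stress genes was not tested.

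**Figure D2:**
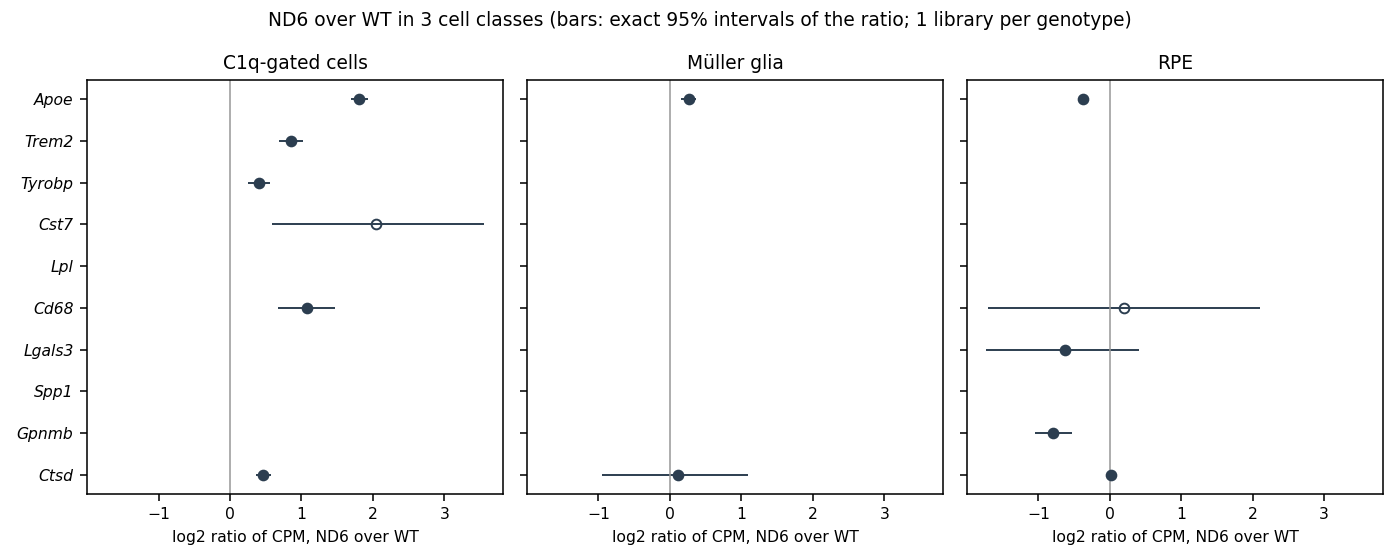
Log2 ratio of CPM, ND6 over WT, for members in C1q-gated cells, Müller glia, and RPE, with exact 95% intervals that may be shorter than the point. Open circles are members with fewer than 20 UMIs, and members with fewer than 10 UMIs or with 0 in a library are not drawn. All points lie right of 0 in C1q-gated cells (0.41 to 2.04), whereas *Apoe*, *Lgals3*, and *Gpnmb* lie left of it in RPE.

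*Apoe* had the highest ratio of the 5 well-counted members, and its UMIs came from few cells. Its level was 1938 CPM (1829 to 2052) in WT and 6801 CPM (6446 to 7170.5) in ND6, a log2 ratio of 1.81 (1.70 to 1.92). Yet a single *Apoe* UMI or more was present in only 37 of 164 WT cells (22.6%, 16.4 to 29.7) and 26 of 96 ND6 cells (27.1%, 18.5 to 37.1), beside 15.8% and 16.7% of rods. After thinning, the shares were 12.8% and 15.6%, with 3.38% and 4.16% in rods. The median cell of both libraries held 0 *Apoe* UMIs.

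The 5 cells with the most *Apoe* UMIs, looked at after their values were known, held 64.8% of the 1172 UMIs in WT and 93.4% of the 1373 in ND6. Without these 5 cells of each library the log2 ratio was −0.49. That cut took unequal shares of the *Apoe* UMIs, and cells with *Apoe* at 1% of UMIs or more numbered 12 in WT and 9 in ND6. The value therefore does not show that *Apoe* was lower in the other ND6 cells. Weighting every cell equally gave 0.29. *Trem2* was carried more evenly, its top 5 cells holding 19.3% and 25.1% of its UMIs, and its ratio without the 5 *Apoe* cells was 0.81.

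The *Apoe*-rich cells differed in macrophage marker UMIs between the libraries, to an extent that depends on the cut. In WT, the 8 cells with at least 2 macrophage marker UMIs held 74.6% of all *Apoe* UMIs, and the top cell, with 272 *Apoe* UMIs, had 59 macrophage marker and 33 microglia marker UMIs. In ND6, the 2 such cells held 11.7%. Among cells with *Apoe* at 1% of UMIs or more, 9 of 12 in WT and 5 of 9 in ND6 held a macrophage marker UMI. Those cells held 79.9% and 50.8% of all *Apoe* UMIs. The 3 ND6 cells with the most, at 420, 385, and 188 *Apoe* UMIs, had 65, 82, and 160 microglia marker UMIs and 0, 1, and 0 macrophage marker UMIs. Leaving out the cells with at least 2 macrophage marker UMIs raised the log2 ratio to 3.59, with *Apoe* then at 509 CPM in WT and 6122 CPM in ND6. That cut, chosen after the data were seen, took 74.6% of the *Apoe* UMIs in WT and 11.7% in ND6. A higher ratio follows from such unequal shares, and the ND6 level that remained rests mainly on the 3 cells named above. UMIs of Müller gate genes in the top 5 cells numbered 0 in WT and 3 in ND6, and those of RPE gate genes 1 and 0.

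**Figure D3:**
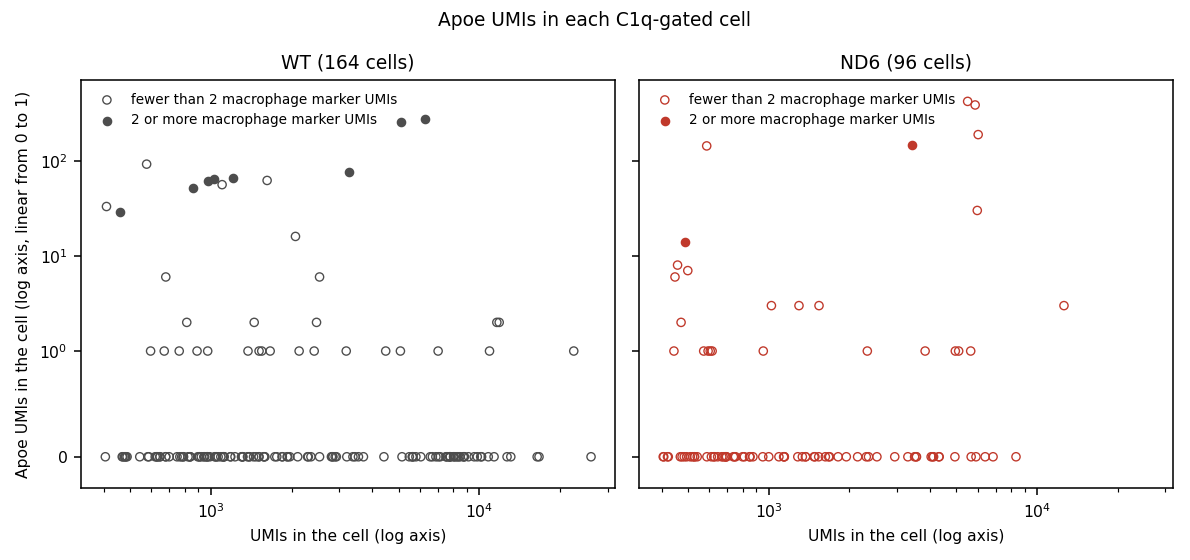
*Apoe* UMIs (log axis, linear from 0 to 1) against all UMIs (log axis) of each C1q-gated cell, 164 in WT and 96 in ND6, filled where the cell holds at least 2 macrophage marker UMIs. Most cells lie at 0, filled points carry most *Apoe* in WT, and 3 open points between 188 and 420 UMIs carry most of it in ND6.

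The 5 other members were sparse in the C1q-gated cells of both libraries. *Cst7* had 8 UMIs in WT and 11 in ND6, or 13.2 CPM (5.71 to 26.1) and 54.5 CPM (27.2 to 97.5), a log2 ratio of 2.04 (0.59 to 3.56). *Lpl* had 2 and 4 UMIs, *Spp1* 0 and 2, and *Lgals3* 1 and 0. *Gpnmb* had 0 UMIs in WT, where 3 UMIs would have been 4.96 CPM, and 7 in ND6 at 34.7 CPM (13.9 to 71.4). The ND6 level was 6.99-fold the level of 3 UMIs in WT, a value that leaves out the counting error of the 7 UMIs.

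Those counts again came from few cells. A UMI of any of *Cst7*, *Lpl*, *Spp1*, *Gpnmb*, and *Lgals3* was found in 8 of 164 WT cells, each with 1 of the genes, and in 9 of 96 ND6 cells, 7 with 1 and 2 with 2 of them. The ND6 cell with the most *Apoe* held all 7 *Gpnmb* UMIs and 8 of the 11 *Cst7* UMIs, beside 30 of *Trem2*, 41 of *Tyrobp*, 16 of *Cd68*, and 127 of *Ctsd*. It was the cell in which most members coincided, with 65 UMIs of microglia markers and 0 of macrophage markers. Without the 5 cells richest in *Apoe*, the log2 ratio of *Cst7* was −0.30 (−3.57 to 2.03), so its direction is then not settled. That of *Cd68* fell to 0.66 (0.19 to 1.11). For a gene with 0 UMIs in cells, such as *Spp1* in WT, 0 of 164 cells allows a share of up to 2.22% of cells with a UMI. For levels, 3 UMIs are taken as the limit of a count of 0.

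*Lpl* and *Spp1* were measured mostly outside the gated classes. Of 43 *Lpl* UMIs in WT cells and 132 in ND6 cells, 76.7% and 69.7% lay in cells that were neither gated nor rods. *Spp1* had 123 UMIs in WT and 48 in ND6, and 95.9% and 41.7% of them lay in such cells.

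**Figure D4:**
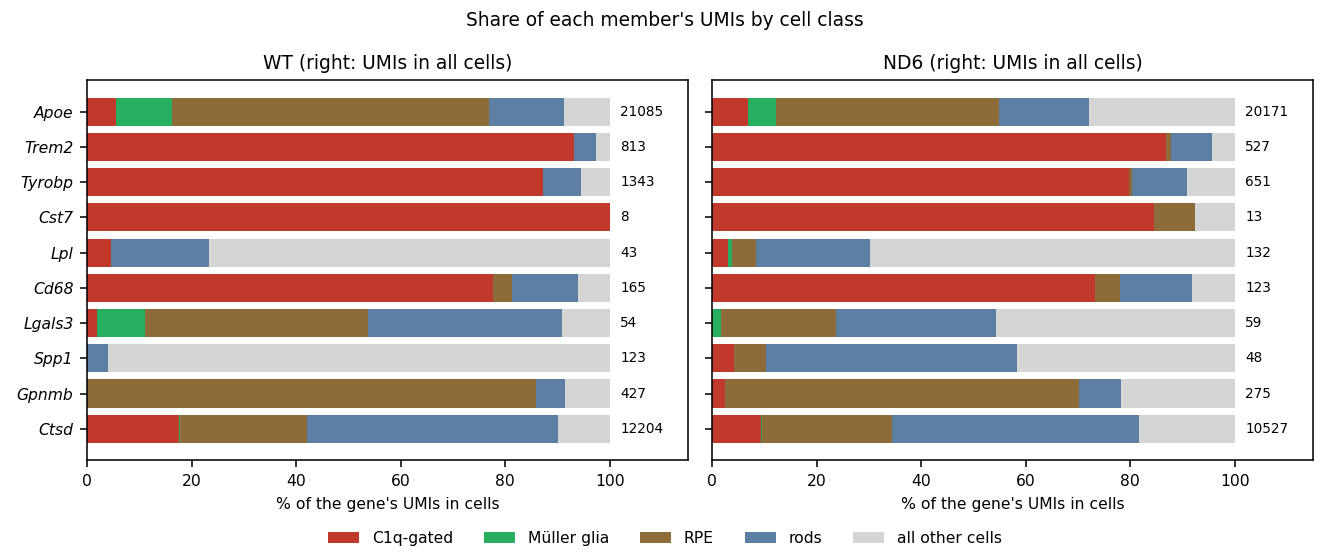
Share (%) of each member's UMIs in cells that came from C1q-gated cells, Müller glia, RPE, rods, and all other cells, WT left and ND6 right, with the number of UMIs at the end of each bar. C1q-gated cells supplied 73.2% to 100% of *Trem2*, *Tyrobp*, *Cst7*, and *Cd68*, RPE supplied 85.9% and 67.6% of *Gpnmb*, and rods 48.0% and 47.2% of *Ctsd*.

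Other genes of the program and of its pathway were looked at as lists in the C1q-gated cells. The 17 further disease-associated genes counted, 14 of which had at least 20 UMIs, had a median log2 ratio of 0.34, with 9 higher, 5 lower, 2 at least 2-fold higher, and 1 at least 2-fold lower in ND6. *Cd63*, an endosome and lysosome tetraspanin, was at 266 and 589 CPM (1.15, 0.79 to 1.5), and the receptor tyrosine kinase *Axl* at 28.1 and 59.4 CPM (1.08, −0.12 to 2.23). *Csf1*, a growth factor of microglia, went the other way with 38 and 2 UMIs (−2.67, −5.76 to −0.71), and *Cstb*, a cathepsin inhibitor, stood at 132 and 104 CPM (−0.35, −1.11 to 0.36). *Clec7a* was not analysed here.

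The lysosomal list was higher in ND6 more evenly. Of 22 other lysosome genes, 18 had at least 20 UMIs, 15 of these were higher and 3 lower, and their median log2 ratio was 0.53, with 2 past 2-fold. Among these was *Gusb*, β-glucuronidase, at 82.7 and 193 CPM (1.22, 0.58 to 1.86). The lowest were the regulator *Tfe3* at 127 and 74.3 CPM (−0.78, −1.68 to 0.03) and the protease *Ctsc* at 319 and 282 CPM (−0.18, −0.63 to 0.26). Summed over the list, the level was 9932 CPM in WT and 14196 CPM in ND6.

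Among 15 genes of lipid handling and TREM2 signaling, 9 had at least 20 UMIs, with 6 higher, 3 lower, and a median of 0.22. *Lipa*, the lysosomal acid lipase, was at 36.4 and 104 CPM (1.52, 0.58 to 2.45), and *Lrp1*, a receptor for apolipoprotein E, at 122 and 243 CPM (0.99, 0.44 to 1.53). The kinase *Syk*, downstream of TYROBP, had 26 and 7 UMIs (−0.31, −1.76 to 0.93), and the oxysterol receptor gene *Nr1h2* 36 and 7 (−0.78, −2.19 to 0.41).

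Homeostatic microglia genes, which the disease program is known to lower, were not lower in ND6. All 12 had at least 20 UMIs, 11 were higher and 1 lower, and the median log2 ratio was 0.59, between those of the lysosomal list and the members. *Sall1*, a microglial transcription factor, was at 132 and 292 CPM (1.14, 0.63 to 1.65), and *Olfml3* at 469.6 and 1006 CPM (1.10, 0.83 to 1.36). *Tmem119* (0.02, −0.28 to 0.31) and *Fcrls* (−0.03, −0.83 to 0.72) were the lowest of the list.

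Dissociation-stress genes were lower in ND6. All 9 dissociation-stress genes were lower, 4 of them by at least 2-fold, with a median of −0.999. The heat shock gene *Hspa1a* had 394 UMIs in WT and 3 in ND6 (−5.45, −7.74 to −3.90) and *Hspa1b* 87 and 1 (−4.86, −10.18 to −2.34), whereas *Jun* (−0.26, −0.38 to −0.14) and *Ccl3* (−0.16, −0.34 to 0.02) differed least. The 3 macrophage markers with at least 20 UMIs were *Pf4* with 70 and 11 UMIs (−1.09, −2.15 to −0.16), *Mrc1* with 20 and 2 (−1.74, −4.88 to 0.30), and *F13a1* with 23 and 2 (−1.94, −5.07 to 0.08). Of these 3 intervals only that of *Pf4* excludes 0. It does not cover spread between cells, and 1 cell held 35 of the 70 *Pf4* UMIs in WT and 1 cell 8 of the 11 in ND6. *Cd163*, named after its values were seen, had 8 and 9 UMIs and was higher in ND6 (1.75, 0.21 to 3.33).

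**Figure D5:**
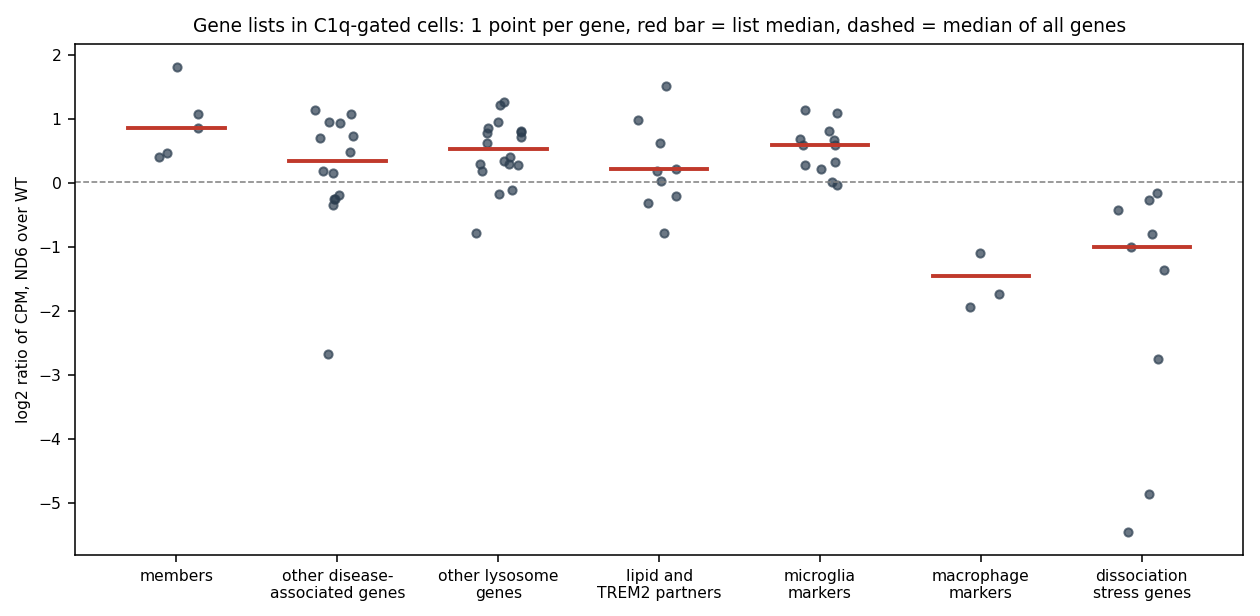
Log2 ratio of CPM, ND6 over WT, of each gene with at least 20 UMIs in C1q-gated cells, by list, with the list median as a red bar and the median of all such genes (0.02) as a dashed line. Medians were 0.86 for the members, 0.53 for other lysosome genes, 0.59 for microglia markers, and −0.999 for dissociation-stress genes.

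In Müller glia only *Apoe* was well measured. Dissociation-stress genes summed to 10031 CPM there in WT and 1096 CPM in ND6, and their part in the ratios was not tested. *Apoe* stood at 11698 CPM (11221 to 12190.5) in WT and 14028 CPM (13206 to 14886) in ND6, a log2 ratio of 0.26 (0.16 to 0.37), and 24 of 24 and 29 of 30 cells held an *Apoe* UMI. The gate mattered here, since a looser gate, with 34 cells in WT and 101 in ND6, gave −0.11 and a stricter one, with 8 and 6 cells, gave 1.47, so the direction is not settled. *Ctsd* had 30 and 13 UMIs, or 155 and 168 CPM, with a log2 ratio of 0.11 (−0.95 to 1.09). These 2 were the only members with at least 20 UMIs, and 0 of the 2 were past 2-fold in either direction, against 8.81% of 2714 genes higher and 9.69% lower.

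The remaining members were at or near 0 in Müller glia. *Trem2*, *Tyrobp*, *Cst7*, *Cd68*, *Spp1*, and *Gpnmb* had 0 UMIs in both libraries, where 3 UMIs would have been 15.5 CPM in WT and 38.7 CPM in ND6. *Lpl* had 0 and 1 UMI and *Lgals3* 5 and 1. The *Apoe* level of C1q-gated cells was 0.166 of that of Müller glia in WT (0.154 to 0.178) and 0.485 of it in ND6 (0.447 to 0.525). These intervals do not cover that few C1q-gated cells held most of those UMIs.

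The RPE was the main source of *Apoe* and of *Gpnmb*. It supplied 60.6% of *Apoe* UMIs in WT cells and 42.6% in ND6 cells. *Apoe* stood at 10076 CPM (9902 to 10252) in WT and 7748 CPM (7585 to 7914) in ND6, with a log2 ratio of −0.38 (−0.42 to −0.34). With a minimum of 1000 UMIs per cell the ratio was −0.40, and among RPE cells with 1000 to 6000 UMIs, 112 in WT and 369 in ND6, a range chosen after seeing the data, it was 0.013. The part of depth was not tested. A UMI of *Apoe* was found in 98.6% and 98.5% of RPE cells, and in 90.7% and 90.0% after thinning.

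*Gpnmb*, known in the RPE for its place in melanosomes and in the clearance of debris, stood at 289 CPM (261 to 321) in WT and 168 CPM (144 to 194) in ND6. The log2 ratio was −0.79 (−1.05 to −0.53), and within the same depth range it was −0.75. The share of RPE cells with a *Gpnmb* UMI was 51.9% (45.0 to 58.7) in WT and 15.9% (13.3 to 18.8) in ND6, beside 0.135% and 0.163% of rods, all before thinning. After thinning the RPE shares were 9.72% (6.12 to 14.5) and 5.49% (3.95 to 7.40). The 3 melanosome markers of the RPE list were lower as well: *Pmel* at 397 and 123 CPM, *Tyrp1* at 312 and 120 CPM, and *Mlana* at 162 and 40.6 CPM. Gate genes went both ways, with log2 ratios of −0.27 for *Rpe65*, −0.23 for *Rrh*, and −0.15 for *Rdh5*, and of 0.11 for *Rgr* and 0.21 for *Lrat*. The remaining gate gene, *Best1*, had 0 UMIs in RPE cells of both libraries. The RPE transporter gene *Slc16a8* was at 0.18 (0.10 to 0.27).

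*Ctsd* in the RPE stood at 2333 CPM (2250 to 2419) in WT and 2369 CPM (2279 to 2462) in ND6, a log2 ratio of 0.02 (−0.05 to 0.10). Its direction is not settled, since stricter gates gave 0.15 (0.07 to 0.23), looser gates −0.13 (−0.21 to −0.06), and subtraction of free RNA 0.30. *Lgals3* had 23 and 13 UMIs, or 18.1 and 11.7 CPM (−0.63, −1.73 to 0.41). In WT that level lay below the 92.9 CPM of free RNA, whereas in ND6 free RNA held 2.57 CPM. *S100a8* and *S100a9* were higher still in WT free RNA, at 363 and 495 CPM, but had 0 UMIs in WT RPE cells. Whether the *Lgals3* UMIs there are background was not tested. *Cd68* had 6 UMIs in each library. *Trem2*, *Tyrobp*, *Cst7*, *Lpl*, and *Spp1* had 0 UMIs in WT RPE cells and 1 to 6 in ND6.

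Of the 4 members with at least 20 UMIs in the RPE, 1 was higher, 3 were lower, and 0 were past 2-fold, against 7.49% of 8216 genes at least 2-fold higher and 2.35% at least 2-fold lower. The 3 are *Apoe*, *Gpnmb*, and *Lgals3*, the last below its level in free RNA in WT. The median log2 ratio was −0.49 over the 4 and −0.38 without *Lgals3*, beside 0.08 for all genes. The 22 other lysosome genes, 19 of them with at least 20 UMIs, had 2 higher and 17 lower in ND6 RPE, and a median of −0.27. *Psap*, the precursor of the saposins, was at 3231 and 2463 CPM there and at 1062 and 1754 CPM in C1q-gated cells. Whether the classes differ in this was not tested, since each rests on the same 2 libraries.

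Set in order of level, the members split between classes. Among C1q-gated cells, Müller glia, RPE, and rods, 4 members with at least 20 UMIs were highest in C1q-gated cells in WT (*Trem2*, *Tyrobp*, *Cd68*, and *Ctsd*). In ND6 they were 6, the others being *Lpl* and *Spp1*, which had 4 and 2 UMIs there, or 19.8 and 9.91 CPM. Both levels lie below the 38.7 CPM of 3 UMIs in ND6 Müller glia, so their order is not resolved. With a minimum of 1 UMI the numbers were 6 in WT, *Lpl* and *Cst7* included, and 7 in ND6. *Apoe* was highest in Müller glia in both libraries, ahead of RPE by 1.16-fold (1.11 to 1.21) in WT and 1.81-fold (1.70 to 1.93) in ND6. C1q-gated cells came next, at 0.192 of the RPE level (0.181 to 0.204) in WT and 0.878 of it (0.829 to 0.929) in ND6, and rods last. The Müller level rests on 24 cells in WT and 30 in ND6, and its log2 ratio was −0.11 with looser and 1.47 with stricter gates. Whether Müller glia stay ahead of RPE under those gates was not tested. The C1q-gated level rests on few cells, 5 of 164 holding 64.8% of its *Apoe* UMIs in WT and 5 of 96 holding 93.4% in ND6. *Ctsd* was highest in C1q-gated cells, 1.51-fold (1.43 to 1.60) above RPE in WT and 2.06-fold (1.92 to 2.22) in ND6, with Müller glia and rods not separated in level (1.17-fold, 0.790 to 1.68 in WT).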

How the data were processed

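Retinal cells of 1 WT and 1 ND6 library were profiled with the 10x Genomics Chromium 3′ kit. The authors aligned reads to mm10 with Cell Ranger (v3.0.2) and deposited raw counts, in whole UMIs per gene and barcode without normalization, for all barcodes. The annotation release is not given in the sources used here.

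Cells were barcodes that reached 401 UMIs and 201 genes and did not exceed 20% mt- UMIs, which are the limits of the study. Cells were gated on *C1qa*, *C1qb*, and *C1qc* (3 UMIs, 0.2% of UMIs), or on at least 5 UMIs from at least 3 gate genes making up at least 0.5% of UMIs: *Slc1a3*, *Aqp4*, *Dkk3*, *Gpr37*, *Kcnj10*, *Sox9*, and *Abca8a* for Müller glia, and *Rpe65*, *Rgr*, *Lrat*, *Rdh5*, *Rrh*, and *Best1* for RPE. Barcodes passing 2 gates (0 in WT, 2 in ND6) were left out, and no other doublet call was made. Free RNA came from 7324 and 8621 barcodes of 10 to 100 UMIs.

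UMIs were summed per library and class (Python 3.11.15, SciPy 1.17.1), with exact Poisson, Clopper-Pearson, and conditional 95% intervals, and medians of lists added 0.5 UMIs to each sum. The code was tested on simulated data. Sequences were read from RefSeq tables of GRCm38.p6, the same assembly as mm10. Members, lists, and alternatives were chosen with earlier results of these data known. All members were named, and of each other list the 2 highest and 2 lowest log2 ratios among genes with at least 20 UMIs, with *Psap* and the melanosome genes added after their values were seen, and 1 gene that this rule names is not reported here. Alternatives were no mtDNA limit, at least 1000 UMIs, stricter and looser gates, median-of-ratios scaling, equal weight of cells, subtraction of free RNA, and the handling of shared or doubly gated barcodes. Those without *Apoe*-rich or macrophage-marked cells, without *Lgals3*, within a depth range, or with a minimum of 1 UMI for the count of members highest in a class, were chosen after seeing the data.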

Additional observations from a re-analysis of the deposited data

Results flagged for a closer look

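*Apoe* moved in opposite directions between classes of the same 2 libraries, with a log2 ratio of ND6 over WT of 1.81 in C1q-gated cells and 0.26 in Müller glia against −0.38 in RPE. The difference between classes was not tested, because each genotype is 1 library. Both ends rest on settings. The C1q-gated value was −0.49 without the 5 cells richest in *Apoe*, which held unequal shares of its UMIs in the 2 libraries. The RPE value was 0.013 in cells of 1000 to 6000 UMIs but −0.40 with a minimum of 1000 UMIs.

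Barcodes that passed the C1q gate but exceeded 20% mtDNA UMIs were left out of the main comparison, entered the alternative without an mtDNA limit, and also carried members. There were 95 of them in WT and 16 in ND6. *Apoe* stood at 3515 CPM in WT and 4085 CPM in ND6, *Trem2* at 719 and 377 CPM, *Tyrobp* at 1549.8 and 691 CPM, and *Ctsd* at 1479 and 691 CPM, each above the level of 3 UMIs. *Cd68* stood at 132 CPM in WT. *Trem2*, *Tyrobp*, and *Ctsd* were lower in ND6 there, opposite to the cells within the limit, on 6, 11, and 11 ND6 UMIs. The intervals do not overlap for *Tyrobp* (1314 to 1816 and 345 to 1237) or *Ctsd* (1249 to 1739 and 345 to 1237), and overlap for *Trem2* (562 to 907 and 138 to 821).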

How the results depend on the processing

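No paired analysis was possible because each genotype has 1 library, so the shared replicate number pairs nothing and no library could be left out. The median log2 ratio of the members in C1q-gated cells (0.86) stayed positive under every alternative run and was 0.50 with cells weighted equally, 0.61 with free RNA subtracted, 0.37 without the 5 cells richest in *Apoe*, and 1.44 with a minimum of 1 UMI per gene. The last brings in sparse members, *Spp1* and *Gpnmb* with 0 UMIs in WT. For these the 0.5 UMIs added to each sum weigh more in ND6, whose class held 201882 UMIs against 604721 in WT. Without the 5 cells richest in *Apoe*, its ratio in C1q-gated cells was −0.49, after a cut that took unequal shares of its UMIs. *Cst7* moved to −0.30 with an interval on both sides of 0 (−3.57 to 2.03). In Müller glia (0.20) stricter gates gave 1.48, and *Apoe* reversed to −0.11 with looser gates. In RPE (−0.49) the median was −0.68 with looser gates, −0.11 with cells weighted equally, −0.11 with free RNA subtracted, 0.013 in cells of 1000 to 6000 UMIs, where *Apoe* was also 0.013, and 0.99 with a minimum of 1 UMI per gene, which brings in genes with 0 UMIs in WT. The cause of the other shifts was not tested. The numbers of members highest in C1q-gated cells (4 in WT, 6 in ND6) were 4, and 5 or 6, under the alternatives run for them, except 6 and 7 with a minimum of 1 UMI per gene. Median-of-ratios scaling was not run for these numbers.

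Depth limits the sparse members most. A count of 3 UMIs corresponds to 4.96 CPM in WT and 14.9 CPM in ND6 C1q-gated cells, and to 15.5 and 38.7 CPM in Müller glia. Intervals cover counting error of UMIs or of cells only, and no value here carries the spread between mice.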
